A study of Mus musculus with 3 samples.

Results

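The stathmins (Stmn1, Stmn2, Stmn3 and Stmn4) and the collapsin response mediator proteins, or CRMPs (Crmp1, Dpysl2, Dpysl3, Dpysl4 and Dpysl5), are small families of tubulin-binding proteins of growing neurons. Their genes were found as the rows whose Ensembl identifiers map to these 9 symbols, out of 41388 genes in each deposited table. RNA sequencing was done on dorsal root ganglion cells taken from mouse embryos aged 12.5 days post coitum and sorted by flow cytometry. On a C57BL/6 background, the embryos bore EGFP as a reporter of Ret, a receptor tyrosine kinase gene. The sample labels give the genotype as Tg(Ret-EGFP)SJ/, a transgene name, whereas the series text describes heterozygotes with EGFP placed in the Ret locus; this conflict was not resolved. Library D pooled 60 ganglia from 3 embryos, library B 340 ganglia from 17 embryos (10 male and 7 female) and library C 300 ganglia from 15 embryos, all from spinal levels T11 to S1 and from both sexes per the labels. All 3 libraries belong to 1 group and there is no second condition, so the comparisons set pools of the same kind of cell against each other.

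Stathmins bind tubulin dimers, hold them out of the microtubule lattice and favour microtubule shrinkage. Stmn1 is cytosolic, whereas the neuronal members Stmn2, Stmn3 and Stmn4 carry an amino-terminal extension whose cysteines are palmitoylated and hold the protein on Golgi membranes and vesicles of the growth cone. CRMPs also bind tubulin, promote axon growth and relay the growth cone collapse set off by semaphorin 3A, to which sensory axons of the embryonic ganglion respond. Cdk5 primes CRMP2, the product of Dpysl2, at a carboxy-terminal serine, Gsk3b then phosphorylates neighbouring residues, and the modified protein loses its hold on tubulin.

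The membrane anchor that separates the neuronal stathmins from Stmn1 can be read from the first 30 codons of each coding sequence. They are shown because the neuronal forms made up nearly all stathmin RNA in these cells. The sequences are from GENCODE M21 transcripts on GRCm38, 5′ to 3′, and capitals mark the cysteine codons.
Stmn2: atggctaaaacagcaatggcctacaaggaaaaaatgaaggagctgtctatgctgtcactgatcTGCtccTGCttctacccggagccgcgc
Stmn3: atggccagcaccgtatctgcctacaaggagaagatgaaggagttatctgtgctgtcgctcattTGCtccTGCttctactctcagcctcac
Stmn4: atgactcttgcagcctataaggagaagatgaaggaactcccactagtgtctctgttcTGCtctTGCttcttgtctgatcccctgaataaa
Stmn1: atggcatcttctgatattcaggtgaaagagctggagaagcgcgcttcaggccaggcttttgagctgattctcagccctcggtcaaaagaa
Stmn2 and Stmn3 have cysteine codons at positions 22 and 24, and Stmn4 at positions 20 and 22. Stmn1 has none among these 30 codons, and none in its whole reading frame of 149 codons. The reading frames hold 179 codons in Stmn2, 180 in Stmn3 and 216 in the Stmn4 transcript used. Stmn2 and Stmn3 encode 73.2% identical residues over 179 aligned positions. The other pairs of stathmins were between 63.9% (Stmn1 and Stmn3) and 69.0% identical (Stmn1 with Stmn2, and Stmn1 with Stmn4).

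Among the CRMPs, codons 505 to 526 hold the cluster of residues that Cdk5 and Gsk3b phosphorylate in CRMP2. The stretch is shown for 3 members because those kinases were measured in the same libraries. Capitals mark serine and threonine codons at positions 509, 514, 518 and 522, counted from the start codon; the sequences have the same source and build as those of the stathmins.
Dpysl2: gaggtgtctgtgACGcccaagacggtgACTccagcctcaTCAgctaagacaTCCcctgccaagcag
Crmp1: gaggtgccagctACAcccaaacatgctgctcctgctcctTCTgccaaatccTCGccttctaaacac
Dpysl4: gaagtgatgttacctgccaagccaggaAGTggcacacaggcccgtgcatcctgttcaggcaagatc
Dpysl2 has a serine or threonine codon at each of these positions, with threonine at 509 and 514 and serine at 518 and 522. Crmp1 has them at 509, 518 and 522. Dpysl4 has a serine codon at 514 and neither residue at 509, 518 or 522. Crmp1, Dpysl2 and Dpysl4 each have 572 codons, and Dpysl5 has 564. Dpysl2 was 76.2% identical to Crmp1 and 75.9% to Dpysl4 in encoded residues, whereas Dpysl5 was between 50.1% and 51.3% identical to these 3.

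Total counts were 20966139 in D, 18072199 in B and 11666241 in C. Levels are given as TPM, a count divided by gene length and scaled to the library, so that genes can be compared with each other. At 1 TPM or more in every library, 11896 genes (28.7%) were detected, and all 9 members were among them. Per the labels the embryos of each pool came from different mothers, but sort and library days are not given, so the errors measure the spread between these 3 libraries. In pooled tissue, fewer cells of a type and less RNA per cell cannot be told apart.

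Stmn2, or SCG10, which marks growing axons, was the most abundant member. It stood at 6165 TPM in D, 9309 in B and 8844 in C, a mean of 8106 ± 1697 TPM (SD, n = 3). By level it ranked 12th among all genes in D, 8th in B and 9th in C. The gene lies on chromosome 3 from 8509527 to 8561604, on the plus strand.

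Stmn3, or SCLIP, another membrane-bound stathmin of neurons, had 2671 TPM in D, 6243 in B and 6228 in C (mean 5047 ± 2058, SD, n = 3). B and C nearly coincided and D lay below both. Stmn4, or RB3, the remaining neuronal form, was less abundant, with 496 TPM in D, 898 in B and 906 in C. Stmn1, the cytosolic form that is phosphorylated as cells enter mitosis, had 479 TPM in D, 692 in B and 625 in C. D was the lowest library for each of the 4 stathmins. Stmn3 lies on chromosome 2 (181306459 to 181314500, minus strand), Stmn4 on chromosome 14 (66344296 to 66361680, plus strand) and Stmn1 on chromosome 4 (134468320 to 134473843, plus strand). Stmn1 shares 66 exon bases with the predicted gene Gm23634, which had 0 counts in every library; the other 8 members share no exon bases with another gene.

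Dpysl2, which encodes CRMP2, was the least even of the 9 genes. It had 7972 TPM in D, 1352 in B and 516 in C. Its level in D was 5.90 times that in B and 15.4 times that in C, and B had 2.62 times the level of C. The mean of 3280 ± 4085 TPM (SD, n = 3) therefore describes none of the libraries. Dpysl2 ranked 9th among all genes in D, 99th in B and 322nd in C. Of all counts it took 1.325% in D (95% Wilson interval 1.32% to 1.33%), 0.305% in B (0.302% to 0.307%) and 0.12% in C (0.118% to 0.122%). These intervals treat reads as independent and leave out the spread between pools. Amplified reads do not each stand for a separate molecule, so the intervals may be too narrow even for counting error. The gene lies on chromosome 14 from 66802864 to 66868688, on the minus strand.

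By TPM, Dpysl3, or CRMP4, which also binds actin filaments, was the most even member. It had 707 TPM in D, 715 in B and 620 in C, a coefficient of variation of 7.72%, against a median of 33.8% over the 3141 genes with a mean of at least 40 TPM. Crmp1, which takes part in the semaphorin 3A response, had 274 TPM in D, 205 in B and 225 in C, with a coefficient of variation of 15.1%. Dpysl4, or CRMP3, had 156 TPM in D and 152 in B but 46.1 in C, so that D and B had 3.38 and 3.31 times the level of C. Dpysl5, or CRMP5, which counters the outgrowth that CRMP2 promotes, was the least abundant member, with 70.5 TPM in D, 42.2 in B and 45.8 in C. It still ranked between 2376th and 2652nd of 41388 genes. Crmp1 and Dpysl5 lie on chromosome 5 (37242080 to 37292132 and 30711564 to 30799375, both on the plus strand), Dpysl4 on chromosome 7 (139086001 to 139102704, plus strand) and Dpysl3 on chromosome 18, on the minus strand.

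**Figure D1:**
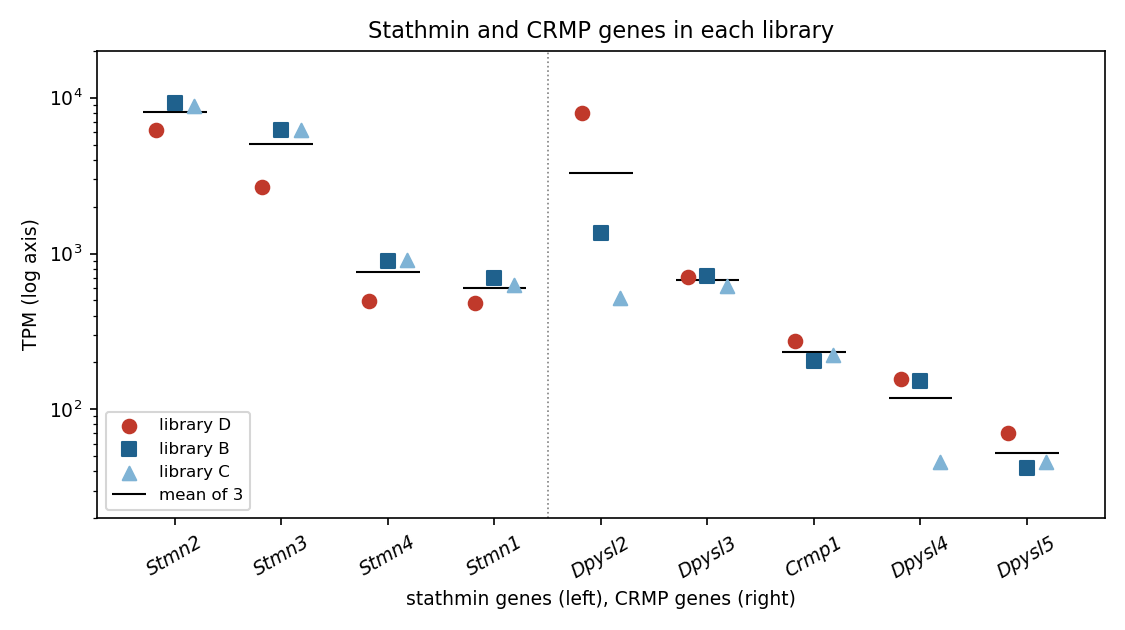
Level of each stathmin gene (left) and CRMP gene (right) in TPM on a log axis, with 1 symbol for each of libraries D, B and C and a line at the mean of the 3. The D symbol is the lowest for every stathmin, and the Dpysl2 symbols stand at 7972 TPM in D, 1352 in B and 516 in C.

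The spread between pools was also taken from the edgeR biological coefficient of variation, which allows for counting noise and is pulled toward the values of genes with similar counts. Over 13182 genes its median was 0.491. Dpysl2 had 0.657, above 96.5% of those genes, and Stmn3 had 0.544, above 80.7%. At the other end, Dpysl5 had 0.450, Crmp1 0.452 and Dpysl3 0.459, above 5.98%, 7.2% and 14.3% of the genes. The remaining 4 members lay between, from 0.489 for Stmn1 to 0.517 for Stmn4. The families thus held some of the most and some of the least even genes of these pools.

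Ordered by mean TPM, the members ran Stmn2, Stmn3, Dpysl2, Stmn4, Dpysl3, Stmn1, Crmp1, Dpysl4 and Dpysl5. Of the 8 neighbouring pairs, 4 did not differ beyond their spread. Stmn3 against Dpysl2 had a log2 ratio of 1.41 ± 2.68, Dpysl2 against Stmn4 1.26 ± 2.48, Stmn4 against Dpysl3 0.12 ± 0.56 and Dpysl3 against Stmn1 0.20 ± 0.32 (mean ± SD, n = 3), each with a sign that differed between libraries. The other 4 pairs kept 1 sign in all 3 libraries. Stmn2 lay above Stmn3 by 0.76 ± 0.39, Stmn1 above Crmp1 by 1.35 ± 0.49, Crmp1 above Dpysl4 by 1.18 ± 0.98 and Dpysl4 above Dpysl5 by 1.00 ± 0.93. In C alone the last pair nearly coincided, at 0.01. An exact two-sided sign-flip test over 3 libraries cannot give a p below 0.25, which is the value for each of these 4 pairs.

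Within the stathmin family the make-up was similar in all pools. Stmn2 took 62.8% of the summed stathmin TPM in D, 54.3% in B and 53.3% in C, and Stmn3 took 27.2% in D, 36.4% in B and 37.5% in C. Stmn4 stayed between 5.05% and 5.46%, and Stmn1 between 3.77% and 4.88%. Within the CRMP family the make-up was not shared. Dpysl2 took 86.9% of the summed CRMP TPM in D, 54.8% in B and 35.5% in C. In C the leading CRMP gene was Dpysl3, with 42.7%, against 7.70% in D and 29.0% in B. Crmp1 took 2.98% in D, 8.31% in B and 15.5% in C. The log2 ratio of Dpysl2 to Dpysl3 was 3.50 in D, 0.92 in B and -0.26 in C (exact two-sided sign-flip p = 0.5). Ratios that left Dpysl2 out were steadier, with Dpysl3 over Crmp1 at 1.55 ± 0.23 and Crmp1 over Dpysl5 at 2.18 ± 0.19 on the log2 scale (mean ± SD, n = 3).

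**Figure D2:**
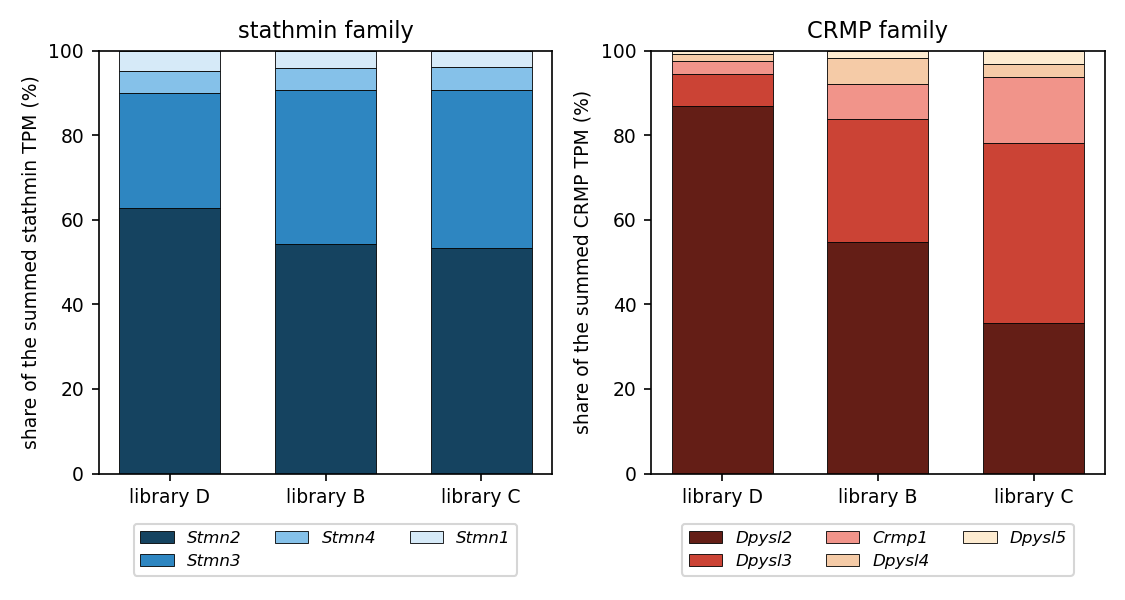
Share of each gene in the summed TPM of its family, in percent, for libraries D, B and C, with the stathmins on the left and the CRMPs on the right. The stathmin bars are alike, with Stmn2 at 62.8%, 54.3% and 53.3%, whereas Dpysl2 fills 86.9%, 54.8% and 35.5% of the CRMP bars.

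Summed over each family, stathmin RNA reached 9810 TPM in D, 17142 in B and 16603 in C, and CRMP RNA 9179 TPM in D, 2466 in B and 1453 in C. The 2 sums were nearly equal in D, with a log2 ratio of stathmins to CRMPs of 0.10, against 2.80 in B and 3.51 in C. Over the 3 libraries the ratio was 2.14 ± 1.80 (SD; exact two-sided sign-flip p = 0.25), and it was 3.16 without D, 1.81 without B and 1.45 without C. With Stmn2 and Dpysl2 both left out, it was 1.59 in D, 2.81 in B and 3.05 in C. The 9 genes summed to nearly the same level in each pool, 18990 TPM in D, 19610 in B and 18060 in C.

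The tubulin list, 6 genes for the subunits that both families bind, summed to 27894 TPM in D, 42996 in B and 25881 in C. The log2 ratio of stathmins to tubulins was -1.51 in D, -1.33 in B and -0.64 in C, a mean of -1.16 ± 0.46 (SD, n = 3; exact two-sided sign-flip p = 0.25). That of CRMPs to tubulins was -1.60 in D, -4.12 in B and -4.15 in C, a mean of -3.29 ± 1.46 (SD). Stmn2 itself lay below Tubb3, the neuronal beta-tubulin, in all 3 libraries, with log2 ratios of -0.59 in D, -0.94 in B and -0.14 in C.

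The genes whose levels ran closest to Stmn2 over the 3 libraries were mitochondrial. By the largest absolute difference in log2(TPM + 0.1) in any library, mt-Nd1 and mt-Cytb, subunits of respiratory complexes, came within 0.41 and 0.45, and the ribosomal RNA mt-Rnr2 within 0.64. In total 7 genes stayed within 1 log2 unit of Stmn2. Dpysl2, the CRMP gene with the highest mean, had 1 such gene, the G protein subunit gene Gnb1, with 4299 TPM in D, 768 in B and 600 in C and a largest difference of 0.89. Next came Ywhae, a 14-3-3 protein gene, at 1.53 and Sod1, superoxide dismutase, at 1.85.

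Library D, which pooled the fewest embryos, was compared with B and C by edgeR's quasi-likelihood test on the counts, scaled by TMM. Of 15727 genes tested, 0 (0%) passed a Benjamini-Hochberg adjusted p of 0.05, and so no member did. At an unadjusted p under 0.05 there were 3046 genes (19.4%), 1754 higher and 1292 lower in D, and 5 of the 9 members were among them. DESeq2, which tested 23553 genes, called 688 of them (2.92%) in the same contrast, 2 members among them. The fit has 1 residual degree of freedom and takes library D to vary like the others, so its standard errors are approximate.

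The 5 members below the unadjusted threshold were the 4 stathmins, all lower in D, and Dpysl2, higher in D. The log2 ratio of D to B and C was -1.93 ± 0.36 for Stmn3 (SE; edgeR adjusted p = 0.168), -1.57 ± 0.40 for Stmn4 (adjusted p = 0.193), -1.26 ± 0.31 for Stmn2 (adjusted p = 0.191) and -1.16 ± 0.40 for Stmn1 (adjusted p = 0.222). For Dpysl2 it was 2.41 ± 0.52 (edgeR adjusted p = 0.17), the 387th highest of 15727 ratios. Stmn3 had the 1083rd lowest. DESeq2 gave log2 ratios of 2.39 for Dpysl2 and -1.93 for Stmn3. Without the filter on low counts, edgeR tested 23553 genes and called 1534 (6.51%), with 4 members among them, Dpysl2, Stmn3, Stmn2 and Stmn4. Their log2 ratios hardly moved, at 2.45 ± 0.36 for Dpysl2, -1.88 ± 0.43 for Stmn3, -1.21 ± 0.38 for Stmn2 and -1.52 ± 0.49 for Stmn4 (SE). The SE of each of these stathmins was larger than with the filter. These calls thus came with the change of filter and not with larger differences. Library D has no replicate, so they are not stronger evidence than the filtered fit.

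By TMM and by TPM, the ratios of the remaining CRMP genes lay within 1 log2 unit of 0, negative by TMM and positive by TPM. They were -0.62 ± 0.34 for Dpysl3, -0.36 ± 0.40 for Crmp1, -0.03 ± 0.68 for Dpysl4 and -0.02 ± 0.42 for Dpysl5 by TMM, with edgeR adjusted p from 0.349 to 0.985, but 0.09 for Dpysl3, 0.35 for Crmp1, 0.89 for Dpysl4 and 0.68 for Dpysl5 by TPM. The same change moved the median of all genes tested from -0.02 by TMM to 0.71 by TPM. Against that median, Dpysl3 and Crmp1 lay lower in D on both scales, and Dpysl5 lay close to it on both. The TPM value sets D against the mean log2 level of B and C, whereas edgeR fits a common level to them. For Dpysl4, B and C differed, so its sign and place also depend on how they are combined. On TMM-scaled CPM it was at -0.59 for D over B and 1.07 for D over C. The stathmins stayed lower in D on the TPM scale, at -1.22 for Stmn3, -0.86 for Stmn4, -0.56 for Stmn2 and -0.46 for Stmn1, and Dpysl2 stayed higher, at 3.25.

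In library D long genes had higher ratios than short ones across the whole table, and the stathmin genes are shorter than the CRMP genes. By length in 5 equal-sized bins, the median log2 ratio of D to B and C was -0.82 in the bin of shortest genes (up to 1736 bases), then -0.54, 0.08, 0.37 and, in the bin of longest genes (from 6194 bases), 0.62. Stmn3 has a counted length of 1136 bases, and Stmn2, Stmn1 and Stmn4 have 1904, 1922 and 1916. The CRMP genes run from 3355 bases for Crmp1 and 4520 for Dpysl2 to 6867 for Dpysl5. Each stathmin lay below the median of its own bin. Dpysl2, at 2.41, lay above a bin median of 0.37 and an upper quartile of 1.11. Dpysl3, at -0.62, lay below the median of the longest genes and below their lower quartile of -0.01.

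**Figure D3:**
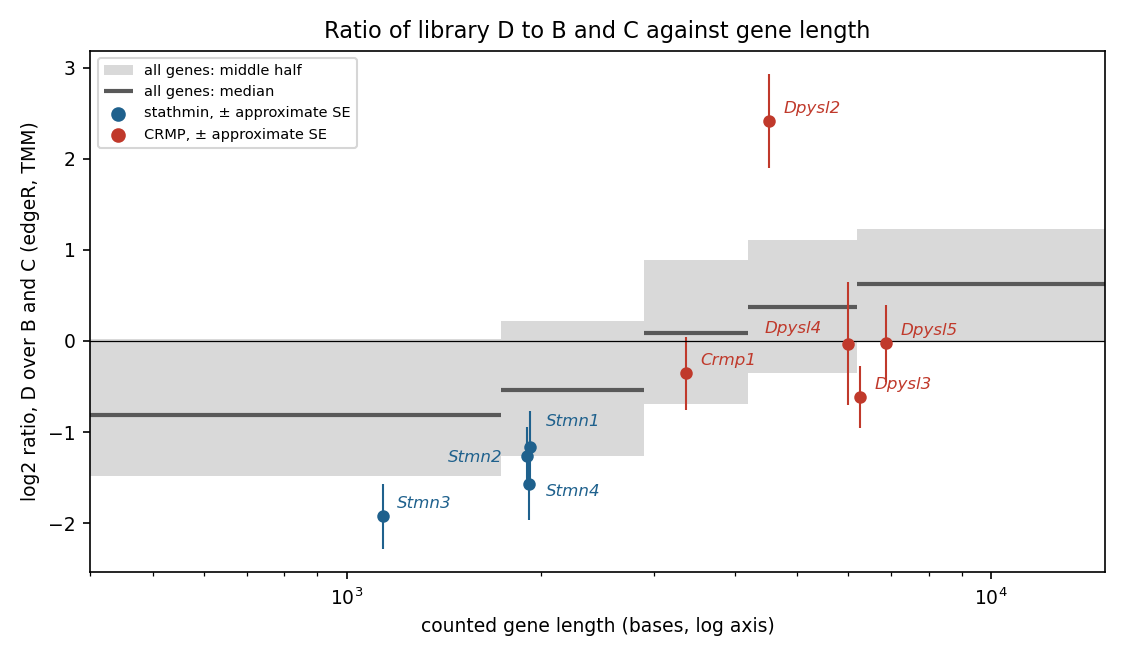
Log2 ratio of library D to B and C (edgeR, TMM) against counted gene length on a log axis, with members as points with approximate SE bars, grey bands for the interquartile range of all genes in 5 length bins and dark lines for their medians. The medians climb from -0.82 to 0.62 with length. Dpysl2 lies above its band, Stmn3, Stmn4 and Dpysl3 lie below theirs and Stmn2 and Dpysl5 at the lower edge. The ratios of the CRMP genes other than Dpysl2 are negative here and positive by TPM.

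With a smooth trend in length taken out of each library, the D ratio was 1.85 for Dpysl2 (edgeR adjusted p = 0.104), -1.36 for Stmn3, -1.23 for Stmn4, -0.92 for Stmn2 and -0.84 for Stmn1. The median of all genes was then -0.30. Dpysl3 was at -1.38, Dpysl5 at -0.83, Dpysl4 at -0.77 and Crmp1 at -0.63. With length and GC content both taken out, Dpysl2 was at 1.67 (edgeR adjusted p = 0.19), Dpysl3 at -1.48, Stmn2 at -1.42, Stmn4 at -1.12, Stmn3 at -0.98 and Stmn1 at -0.88. GC content ranged from 41.3% in Stmn2 to 57.3% in Stmn3, around a median of 49.6% for the genes tested. Under both offsets 5 of the 9 members again had an unadjusted p under 0.05, with Dpysl3 in place of Stmn1, against 17.8% of all genes tested with the length offset and 15.3% with length and GC. Under neither was a stathmin higher or Dpysl2 lower in D.

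**Figure D4:**
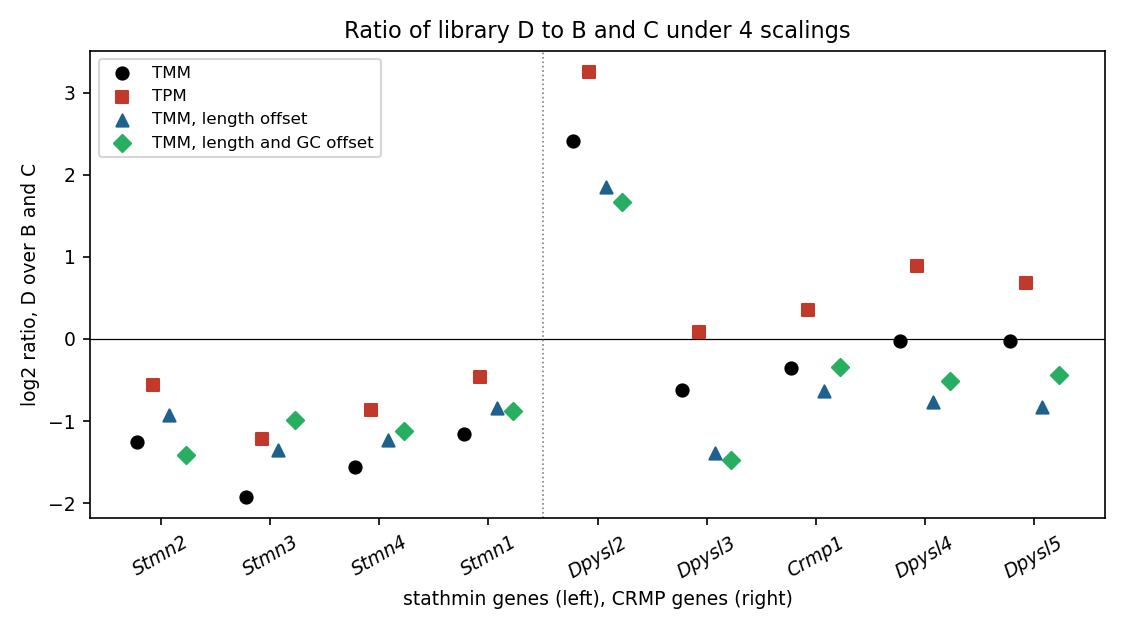
Log2 ratio of library D to B and C for each member under 4 scalings (TMM, TPM, TMM with a length offset, TMM with a length and GC offset). Dpysl2 lies between 1.67 and 3.25 and all stathmins below 0 under each, whereas Crmp1, Dpysl3, Dpysl4 and Dpysl5 are above 0 by TPM and below 0 under the other 3.

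Each library was also set against the remaining ones in turn, fits that share all 3 libraries and are not independent of each other. In B, 0 genes (0%) passed the edgeR adjusted p and 174 (1.11%) an unadjusted p under 0.05, with 1 called by DESeq2; 0 of the 9 members passed either. The member with the largest ratio in B was Dpysl2, at -1.05 ± 1.32 (SE), with Dpysl4 at 1.04 ± 1.12. In C, 123 genes (0.782%) passed the edgeR adjusted p, 119 higher and 4 lower, 1087 (6.91%) passed the unadjusted p, and DESeq2 called 170. In the filtered fit of C, Dpysl2 had a log2 ratio of -2.54 ± 1.33 and Dpysl4 of -1.35 ± 1.04 (SE). Without the filter Dpysl2 was at -2.60 ± 0.96 (SE), and DESeq2 gave -2.56. Whether Dpysl2 passes the unadjusted threshold in C therefore depends on the fit.

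Set pair by pair on TMM-scaled CPM, B and C had nearly the same stathmin levels, with log2 ratios of B to C between -0.08 for Stmn4 and 0.08 for Stmn1. D lay below each of them by a like amount, from -1.07 for Stmn1 against C to -1.91 for Stmn3 against C. Dpysl2 separated all 3, at 1.94 for D over B, 3.26 for D over C and 1.33 for B over C. Dpysl4 separated C from the rest, at 1.07 for D over C and 1.66 for B over C. These pairwise values have no replicate check.

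The kinases and activators that act on CRMPs or stathmins were all detected, 19 of 19. In D, 12 were higher and 7 lower by TMM, but 16 higher by TPM and 7 with the length offset. Counts of this kind stand beside a share of all genes tested that was higher in D of 49.5% by TMM, 72.0% by TPM and 39.2% with the length offset. Cdk5, the priming kinase of CRMP2, had 157 TPM in D, 239 in B and 289 in C. Gsk3b, which acts after it, had 520 TPM in D, 79.0 in B and 50.7 in C, and a log2 ratio of 2.31 ± 0.39 in D (SE; edgeR adjusted p = 0.167). D was thus the highest library for Gsk3b and for Dpysl2, and the lowest for Cdk5. Gsk3b has a counted length of 9831 bases and Cdk5 of 2050, in length bins with median log2 ratios of 0.62 and -0.54 in D. Ratios of these kinases with the length offset are not given here. Cdk1, which phosphorylates Stmn1 in mitosis, had 156 TPM in D, 94.3 in B and 59.2 in C.

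Semaphorin 3A signalling was represented by its receptor side. Of 10 genes, 8 were detected, and the 2 under the limit were Sema3a, the ligand, with 1.81 TPM in D, 0.309 in B and 0.155 in C, and Farp2, a plexin-bound exchange factor, with 6.34 TPM in D, 0.530 in B and 0.956 in C. Nrp1, the receptor subunit that binds the ligand, had 449 TPM in D, 181 in B and 129 in C. L1cam, an adhesion molecule of the receptor complex, had 88.5 TPM in D, 41.6 in B and 36.8 in C, and Chn1, a Rac GTPase-activating protein, 43.9 in D, 28.1 in B and 40.9 in C. In D, 9 of the 10 were higher by TMM, but 4 with the length offset.

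The 6 genes for CRMP-binding proteins of transport, endocytosis and actin assembly were all detected. Klc1, a kinesin light chain, had 85.2 TPM in D, 80.7 in B and 427 in C, so that C stood apart. Wasf1, or WAVE1, an activator of actin branching, had 87.3 TPM in D, 34.6 in B and 27.3 in C, and Kif5b, a kinesin heavy chain, had 26.4 in D, 13.9 in B and 37.5 in C. By TMM 4 of the 6 were higher in D, but 3 with the length offset. Their median log2 ratio was 0.53 by TMM and 0.04 with the length offset, where all genes tested had -0.02 and -0.30.

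Regulators of the stathmins were likewise all detected, 9 of 9. The neuronal RNA-binding proteins Elavl4, Elavl3 and Elavl2 led the list. Elavl4 had 333 TPM in D, 330 in B and 208 in C, Elavl3 had 81.7 in D, 81.5 in B and 49.6 in C, and Elavl2 had 123 in D, 30.7 in B and 27.9 in C. Rest, a repressor of neuronal genes that acts on Stmn2, had 17.5 TPM in D and 3.38 and 3.35 in B and C. Its log2 ratio in D was 1.67 ± 0.46 (SE) by TMM. With 7222 bases it falls in the bin of longest genes, which had a median of 0.62 and an upper quartile of 1.23. Its ratio with the length offset is not given here. By TMM and with the length offset 5 of the 9 were higher in D, and 8 by TPM. The catalytic relatives of the CRMPs were scarce, with Dpys, dihydropyrimidinase, at 7.77 TPM in D, 9.96 in B and 14.8 in C, and Cad, which starts pyrimidine synthesis, at 12.5 in D, 5.01 in B and 3.57 in C.

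**Figure D5:**
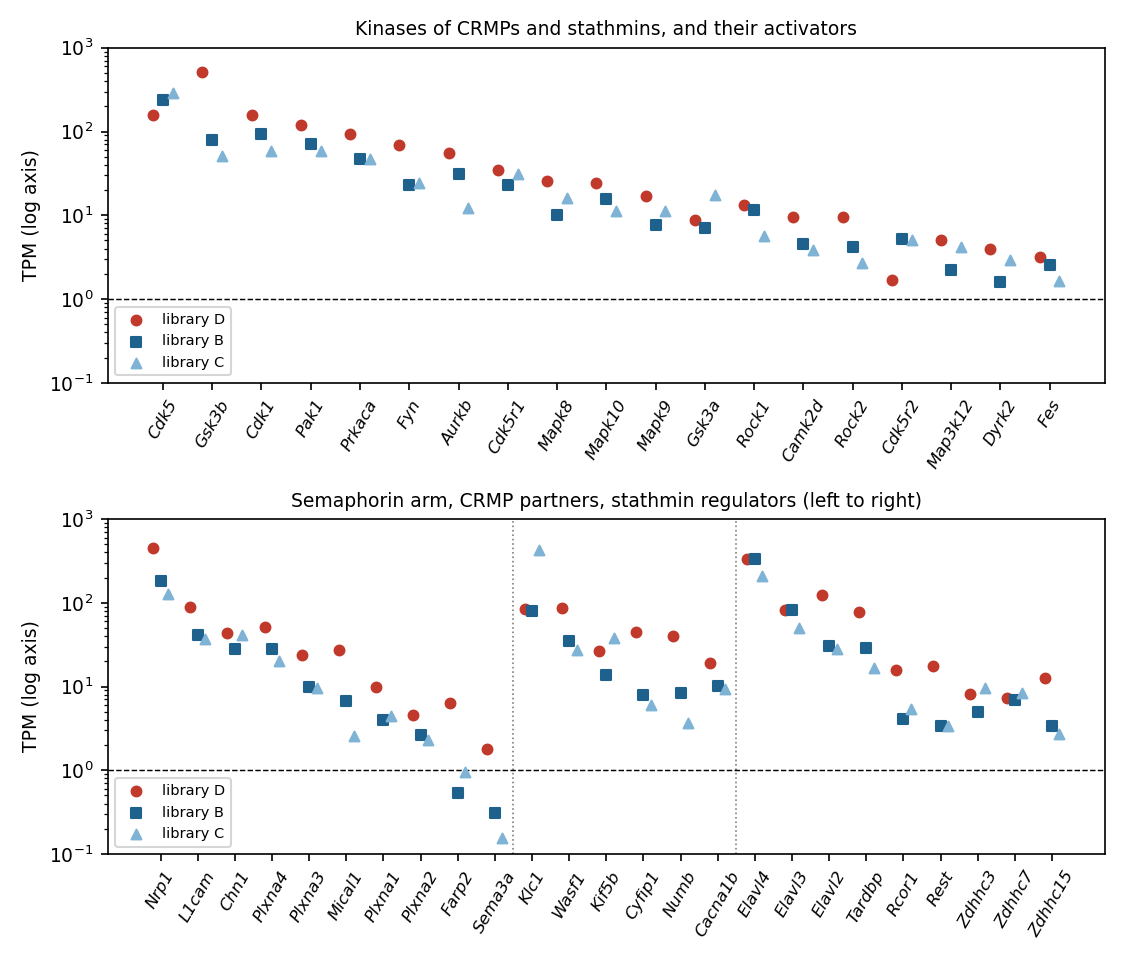
Level in TPM (log axis) of each kinase or activator (top) and of the semaphorin arm, CRMP partners and stathmin regulators (bottom), with symbols for libraries D, B and C and a dashed line at the detection limit of 1 TPM. Gsk3b is at 520 TPM in D against 79.0 in B and 50.7 in C, and Sema3a and Farp2 fall under the limit in B and C.

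Among the tubulins the leading genes were Tuba1a (11270 TPM in D, 16610 in B and 11070 in C), Tubb3 (9265 in D, 17900 in B and 9716 in C) and Tubb5 (5340 in D, 4571 in B and 2785 in C). All 6 had negative ratios in D by TMM, with a median of -1.09, but 1 was higher by TPM. Of 11 other microtubule-binding proteins, 8 were higher in D by TMM, but 4 with the length offset. Map1b, an axonal microtubule protein, had 1069 TPM in D, 796 in B and 429 in C, Mapre1, a plus-end binding protein, 209.9 in D, 108 in B and 140 in C, and Dcx, doublecortin, 83.7 in D, 32.0 in B and 31.3 in C. Mapt, or tau, had 218 TPM in D, 329 in B and 322 in C, with a D ratio of -1.28 ± 0.37 (SE) by TMM.

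Summed levels of cell type markers also differed between the pools. The 10 neuron markers summed to 19020 TPM in D, 30700 in B and 22990 in C. Of these, 9 of 10 were lower in D by TMM and with the length offset, and 5 of 10 by TPM. The 8 markers of glia and Schwann cell precursors summed to 4770 TPM in D, 3042 in B and 1501 in C. Of these, 6 of 8 were higher in D by TMM, 7 with the length offset and 8 by TPM. Markers of dividing cells (6) summed to 500 TPM in D, 226 in B and 142 in C. Of these, 5 of 6 were higher in D by TMM and with the length offset, and 3 with length and GC taken out. Those of mesenchyme (6) summed to 82.1 TPM in D, 20.1 in B and 17.9 in C, with 3 of 6 higher in D by TMM and 2 with the length offset. The sums of these 3 lists were highest in D and lowest in C, as was that of the endothelial markers. So were the sums of the kinases, the semaphorin genes, the stathmin regulators and the other microtubule-binding proteins. By TPM, 72.0% of all genes tested were higher in D. Fabp7, the leading glial gene by mean, was highest in B, with 2017 TPM in D, 2487 in B and 1088 in C. Ednrb, the next by mean, had 2138 TPM in D, 375 in B and 254 in C, above Fabp7 in D only. Erythroid markers (5) summed to 388 TPM in D, 2672 in B and 1340 in C, and sympathetic markers (6) to 87.8 in D, 280 in B and 227 in C; all members of both lists were lower in D by TMM, 1 sympathetic gene being higher by TPM. Macrophage markers (6) summed to 25.01 TPM in D, 32.6 in B and 32.2 in C, endothelial markers (4) to 3.97 in D, 3.79 in B and 0.985 in C, and spinal cord markers (4) to 0.228 in D, 0.0285 in B and 0.0285 in C. Olig2 and Lbx1 had 0 counts in every library, Nkx6-1 in B and C, and Tek in C. The part of these cell types in the differences of the stathmins and CRMPs was not tested.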

How the data were processed

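Per the labels' protocols, cDNA of 3 pools of sorted cells was made with a low-input SMARTer kit that leaves strand unmarked. The authors deposited raw read counts, CPM and RPKM per gene and library. Deposited CPM was the count over the file total, and deposited RPKM that CPM per kilobase. Subread, featureCounts 1.4.5 and GRCm38.p2 are named without roles in the submitters' processing notes; annotation release and strand setting: not given in the sources used here. Symbols were known for 40254 of 41388 identifiers. TPM was computed from the counts and the deposited lengths. Library D was set against B and C, and B and C each against the rest, with edgeR 4.0.16 in R 4.3.3 (TMM, filterByExpr, quasi-likelihood test, Benjamini-Hochberg threshold 0.05, 1 residual degree of freedom); standard errors come from the ratio and its F statistic. The fit was also run on simulated counts with a single spread for all genes and no length trend. That run does not test the fit under the length trend of D. Alternatives were DESeq2 1.42.0, its size factors, no filter, other detection limits, CPM for TPM, each library left out, and a smooth length offset from mgcv 1.9.3 fitted where the mean count was 10 or more. TPM scaling and a joint length and GC offset were added after seeing the data; GC content of the longest transcript was known for 99.4% of the genes tested. Library depth limits precision little here, since the lowest count of a member was 1653, for Dpysl4 in C. Sequences are coding sequences of GENCODE M21 transcripts. No sample of a second condition exists, and no column was left out.

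All 9 members are described. Of the lists of kinases, semaphorin genes, CRMP partners, stathmin regulators and enzyme relatives, the rule names the 3 genes with the highest mean TPM and those under 1 TPM; of other lists the 3 highest and Rest, Tubb3, Tuba1a, Mapt and Dcx; and the 3 genes nearest in level to the highest member of each family. Markers are given as sums. The members and the lists were chosen with earlier results of these data known.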

Additional observations from a re-analysis of the deposited data

How the results depend on the processing

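Of 111 alternative values, 87 were kept, 10 counts of calls moved and 8 ratios of members changed sign. The rest were ratios of members that newly passed the threshold, without a filter or with DESeq2. A member ratio was kept if it held its direction and side of the threshold, and a count if it stayed within 1.5 times. A ratio of family sums was kept if it moved by less than its SD over the libraries. Some kept values therefore changed in size. Genes called in D were 0, but 8 with DESeq2 size factors, 1534 without a filter, 688 with DESeq2, 29 with the length offset and 3 with the length and GC offset. Genes called in B were 0, but 1 with DESeq2, 1 with the length offset and 3 with length and GC. In C, 123 became 247 with the length offset and 284 with length and GC. By TPM, D was set against the mean log2 level of B and C. The sign of the D ratio then turned for Crmp1 (0.35), Dpysl3 (0.086), Dpysl4 (0.89) and Dpysl5 (0.68). Without a filter it turned for Dpysl4 (0.012) and Dpysl5 (0.025). For Dpysl4 the ratio was 1.07 without B and -0.59 without C, and for Dpysl5 -0.063 without B and 0.12 without C. The cause of these differences was not tested. The 4 stathmins and Dpysl2 kept their sign in D under every alternative run. With CPM in place of TPM the log2 ratio of stathmins to CRMPs was 0.54, against 2.14 ± 1.80 (SD) by TPM, because CPM leaves out gene length. TPM scaling and the length and GC offset were chosen after seeing the data. No group holds 4 libraries, so none was checked for outliers. No paired analysis was possible because the libraries form a single group.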
